A study of Mus musculus with 32 samples.

Results

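Enlarged lymph nodes of 8 tumour-bearing mice were compared with 2 samples of wild-type pro-B cells on Affymetrix mouse expression arrays. The members were the 16 arrays titled as tumour lymph nodes, 2 arrays of each node, which were averaged to 8 values, and the 2 wild-type arrays. They made up 18 of the 32 arrays of the series, and 10 samples after averaging. The nodes came from C57BL/6 mice of about 30 weeks that had lost 1 allele of Ebf1 and 1 allele of Pax5 (Ebf1+/-Pax5+/-). They were homogenised, stored frozen as living cells, thawed and sorted for living cells, 1000000 per sample, so every living cell type of a node could contribute RNA. The controls were 1000000 sorted pro-B cells of wild-type C57BL/6 mice, whose age, tissue and sorting markers are not given in the sources used here. Genotype and tumour changed together between the groups and cannot be told apart, nor can they from tissue, age or freezing where these differed. Sex is not balanced either, since sex-linked RNAs given below split most nodes from both controls. The numbers in the titles were read as 1 mouse each, which the labels do not state.

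Pro-B and pre-B cells are the stages at which a B-lineage cell rearranges its immunoglobulin genes. Ebf1 and Pax5 are the transcription factors that start and hold the B-cell program, and loss of 1 copy of each is a background on which B-cell leukaemia arises in mice. Interleukin-7 drives the growth of these cells, and the pre-B receptor, made of the heavy chain, the surrogate light chain and the Cd79 signalling chains, moves them on to the next stage. In such leukaemias the cells keep this program while they divide outside its normal limits.

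The deposited values were log2 expression values centred on a constant for each probe set, so a value is read only against the other samples and gives no level. A change below is the mean of the 8 nodes minus the mean of the 2 wild-type samples on the log2 scale, with limma's standard error (SE). A gene was called at a Benjamini-Hochberg adjusted p under 0.05 over 18194 genes. Arrays of 1 node lay close together, at a root mean square distance of 0.17 to 0.23 over all genes. Different nodes lay 0.41 to 0.75 apart, the wild-type samples 0.27, and a node and a wild-type sample 0.79 to 0.97. The first principal component held 43.8% of the variance and put the wild-type samples at -80.1 and -86.1 and the nodes between 7.3 and 34.0. In all 3625 genes were called, which is 19.9% of those tested. Of these 2049 were higher in the nodes (11.3%) and 1576 lower (8.66%). For 5211 genes (28.6%) no node overlapped the wild-type samples. The median change over all genes was 0.02. With only 2 controls the calls leaned on both of them: 1716 genes were called without wild-type sample 621 and 1117 without 622, where the remaining sample is assumed to vary like the nodes. Of the 3625 genes 924 kept their call in all 10 fits that left out 1 sample. Below, a called gene is said to be robust where it was among these.

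**Figure D1:**
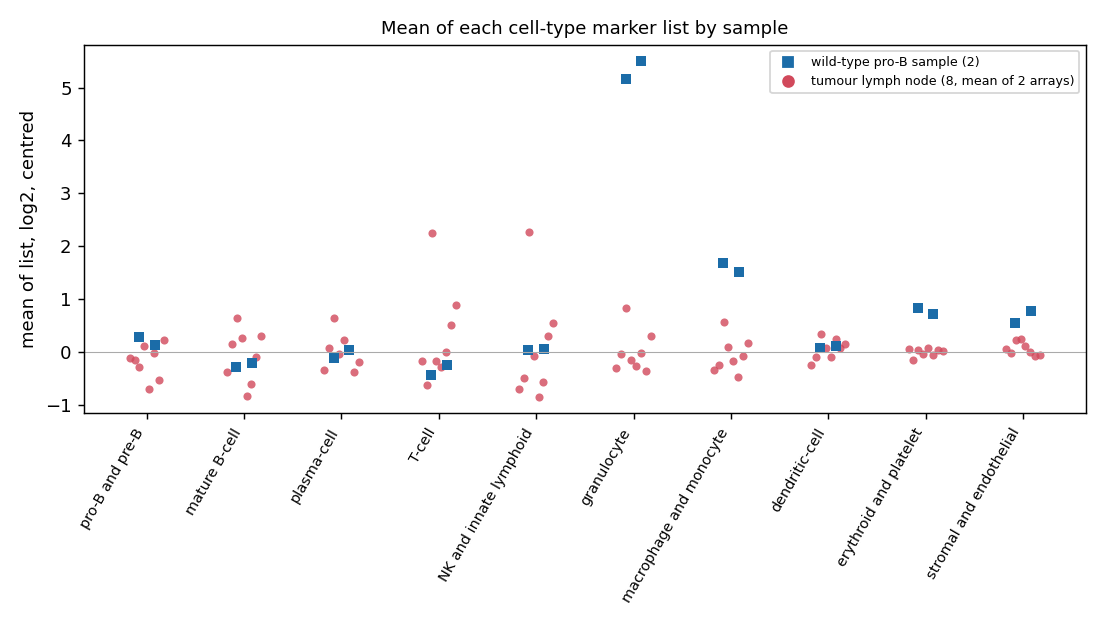
Mean of the measured members of each cell-type marker list, on the log2 scale centred per probe set, for the 2 wild-type samples (squares) and the 8 lymph nodes (circles). The wild-type samples stood at 5.17 and 5.50 for granulocyte markers, above every node, and at 0.27 and 0.12 for pro-B and pre-B markers, where the highest node is at 0.22. The pro-B list holds Ebf1 through probe set 1457441_at, which lowers both wild-type means and runs against the other 4 probe sets of Ebf1.

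Markers of other cell types were measured beside those of the B lineage. Of 19 pro-B and pre-B markers measured, 1 was called higher and 1 lower (5.26% each, against 11.3% and 8.66% of all genes), and the median change was -0.61. The mean of that list was 0.12 and 0.27 in the wild-type samples and ran from -0.70 to 0.22 in the nodes, with a median of -0.13. So 1 wild-type sample lay above every node and the other among them. The list holds Ebf1 through probe set 1457441_at, which runs against the other 4 of that gene. It read -4.20 and -4.66 in the wild-type samples and -0.29 to 0.43 in the nodes, and pulled both wild-type means down. The overlap rests on this probe set, and without it both wild-type means would lie above every node. Of 21 mature B-cell markers 2 were higher (9.52%) and 1 lower (4.76%), and of 13 plasma-cell markers none was called. Of 21 T-cell markers only Ctla4, an inhibitory receptor of T cells, was called (4.76%), higher at 2.16 ± 0.60 SE (adjusted p = 0.031, limma). Of 19 NK and innate lymphoid markers only Zbtb16 was called (5.26%), lower at -0.70. In each of these lists the shares called lay below those of all genes. Ctla4 was not called when either wild-type sample or node 278 was left out, nor Zbtb16 without wild-type sample 622. The T-cell list stood at 2.25 in node 279, 0.88 in node 383 and 0.50 in node 381, and below 0 in the other 5 nodes and both wild-type samples.

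Granulocyte transcripts were higher in the wild-type samples than in the nodes. Of 40 granulocyte markers 37 were lower in the nodes and 1, Trem1, an amplifying receptor of myeloid cells, was higher at 0.98, with a median change of -5.35. Lcn2, an iron-binding protein of granules, stood at 9.82 and 9.97 in the wild-type samples and from -0.41 to 2.85 in the nodes, with a median of 0.03 (change -9.45 ± 0.72 SE, 700-fold). Chil3 changed by -9.13 and Ngp by -8.54. Macrophage and monocyte markers followed, with 17 of 28 lower and none higher, among them the iron exporter Slc40a1 at -4.57 and the integrin Itgam at -3.95. Of 16 erythroid and platelet markers 8 were lower and 1 higher, with Slc4a1, the anion exchanger of red cells, at -5.37, and of 28 stromal and endothelial markers 9 were lower, with Thbs1 at -3.63. By comparison 8.66% of all genes were lower. In bulk samples fewer cells of a type and less RNA per cell cannot be told apart. How far such cells, where present in the controls, bear on other genes was not tested. Among the nodes the granulocyte list was highest in 279 (0.82) and 383 (0.30), and between -0.37 and -0.03 in the other 6. Without those 2 nodes 37 granulocyte and 17 macrophage markers were lower.

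**Figure D2:**
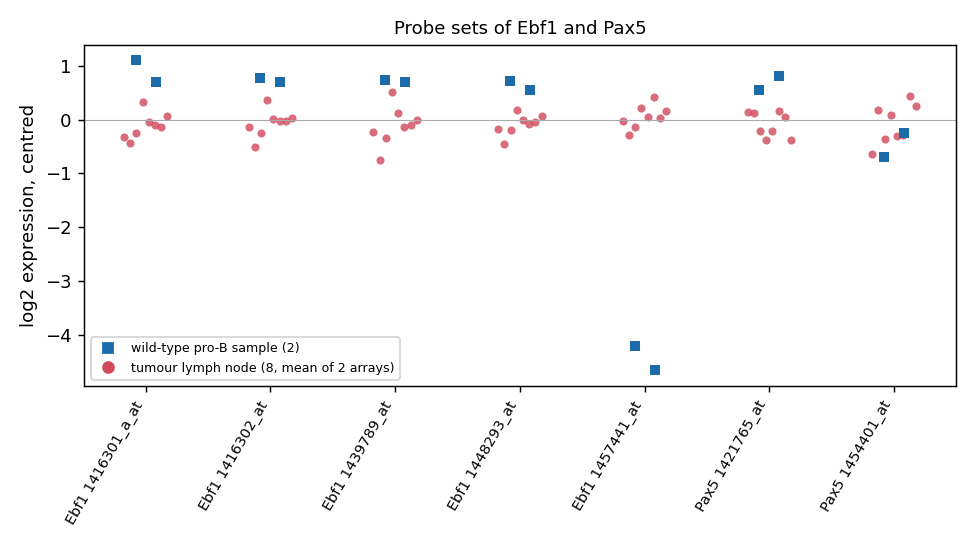
Centred log2 values of the 5 probe sets of Ebf1 and the 2 of Pax5 in the 2 wild-type samples (squares) and 8 nodes (circles). On 4 probe sets of Ebf1 every node lies below both wild-type samples, and on 1457441_at every node lies above them.

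Of the deleted genes, Ebf1 was lower in the nodes on 4 of its 5 probe sets, and Pax5 on 1421765_at only. Ebf1 has 5 probe sets on the array. On 1416301_a_at the wild-type samples stood at 1.10 and 0.70 and the nodes from -0.43 to 0.33, a change of -1.01 ± 0.18 SE (2.02-fold, adjusted p = 0.0042, limma). The changes on 1416302_at, 1439789_at and 1448293_at were -0.81, -0.83 and -0.72, all called, and no node overlapped the wild-type samples on any of these 4. The fifth, 1457441_at, went the other way: it read -4.20 and -4.66 in the wild-type samples and -0.29 to 0.43 in the nodes, a change of 4.48 ± 0.18. Being the most variable, that probe set stands for Ebf1 in the comparison of genes and is the 1 called higher among the pro-B markers. Which part of the transcript each probe set reads is not given in the sources used here. Pax5 changed by -0.77 ± 0.17 on 1421765_at (1.70-fold lower, adjusted p = 0.012, limma) and by 0.40 ± 0.26 on 1454401_at, which did not pass. The latter stands for Pax5 in the comparison of genes, so Pax5 is not among the called genes. The fits that left out 1 sample used that comparison, so they do not cover the lower probe sets of Ebf1 and Pax5. Node 292 had the highest Ebf1 value of the nodes on all 4 of the lower probe sets.

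Genes of the pre-B receptor and its chains mostly did not pass. Igll1, a surrogate light chain gene, read 0.60 and 0.27 in the wild-type samples and from -0.95 to 0.24 in the nodes (change -0.72 ± 0.32, adjusted p = 0.15, limma). Its partner Vpreb1 changed by -0.48 ± 0.23 and Cd79a, a signalling chain, by 0.79 ± 0.34. Of 24 genes of the receptor and its signalling 4 were lower and 1 higher, against 8.66% and 11.3% of all genes. Lower were Pik3ap1, an adaptor that links the receptor to PI3K, at -1.80 ± 0.38, the kinase Syk at -1.42 ± 0.37 on 1 of 4 probe sets, and Bcl10 at -0.76. The kinase Fyn was higher at 1.00 ± 0.18 on both probe sets. Without wild-type sample 622 none of the 24 was called, and without 621 there were 1 lower and 1 higher.

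Among 29 transcription factors of the B lineage 2 were lower (6.9%, against 8.66% of all genes), and 1, Ebf1 through 1457441_at, was higher (3.45%, against 11.3%). Tcf3, which encodes the E proteins that act with Ebf1, read 1.67 and 1.41 in the wild-type samples and from -0.62 to 0.89 in the nodes, with a median of -0.17. The change of -1.56 ± 0.37 (2.94-fold, adjusted p = 0.016, limma) was called on 3 of 3 probe sets. Bach2, a repressor that acts at the pre-B checkpoint, changed by -1.62 ± 0.46, and node 292, at 1.70, lay among the wild-type values of 1.60 and 1.79. Lef1 stood at -1.87 ± 0.64 and did not pass on its more variable probe set, while its other probe set passed at -2.07 (adjusted p = 0.029, limma). Id3, an inhibitor of E proteins, stood at -1.89 ± 0.99 and did not pass. Neither Tcf3 nor Bach2 was called when either wild-type sample was left out, and Bach2 was also lost without nodes 278, 327 or 383.

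Of 12 genes of V(D)J recombination and end joining 3 were higher and 3 lower (25% each, against 11.3% and 8.66% of all genes). Rag2, a subunit of the recombinase, read 1.89 and 1.34 in the wild-type samples and from -1.11 to 1.17 in the nodes, with a median of -0.25 (change -1.76 ± 0.44, 3.38-fold, adjusted p = 0.019, limma). Its partner Rag1 changed by -0.70 ± 0.31 and did not pass. Lig4, the ligase that seals the ends, was lower at -1.64 ± 0.46. Xrcc5, the larger Ku subunit that binds broken ends, was higher at 1.75 ± 0.39, and the polymerase Poll at 0.94 ± 0.17. Dntt, which adds untemplated bases at the joints, stood at -3.20 ± 1.83 and did not pass, with nodes from -5.00 to 2.05. Without wild-type sample 622 none of the 12 was called. Without 621 there were 2 higher and 1 lower, Rag2 and Lig4 not among them, and without nodes 279 and 383 together 3 higher and 1 lower.

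The interleukin-7 list as a whole was called no more often than other genes, with 2 of 20 higher (10%, against 11.3%) and 1 lower (5%, against 8.66%). Socs2, a target and inhibitor of cytokine receptors that signal through STAT5, read -2.43 and -2.64 in the wild-type samples and from -0.57 to 0.61 in the nodes, with a median of 0.15. No node overlapped the controls, the change was 2.64 ± 0.28 (6.22-fold, adjusted p = 0.00018, limma), 5 of 6 probe sets were called in that direction, and the call was robust. The other member that was higher was the kinase Jak3 at 0.51 ± 0.15, and the lower one was the cytokine Osm at -1.17 ± 0.15. Il7r, the receptor chain, changed by 1.00 ± 0.38 and Cish, another feedback inhibitor, by 1.20 ± 0.63, and neither passed. Jak3 was not called when either wild-type sample was left out, nor without nodes 277, 278, 279, 327, 381 or 383.

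**Figure D3:**
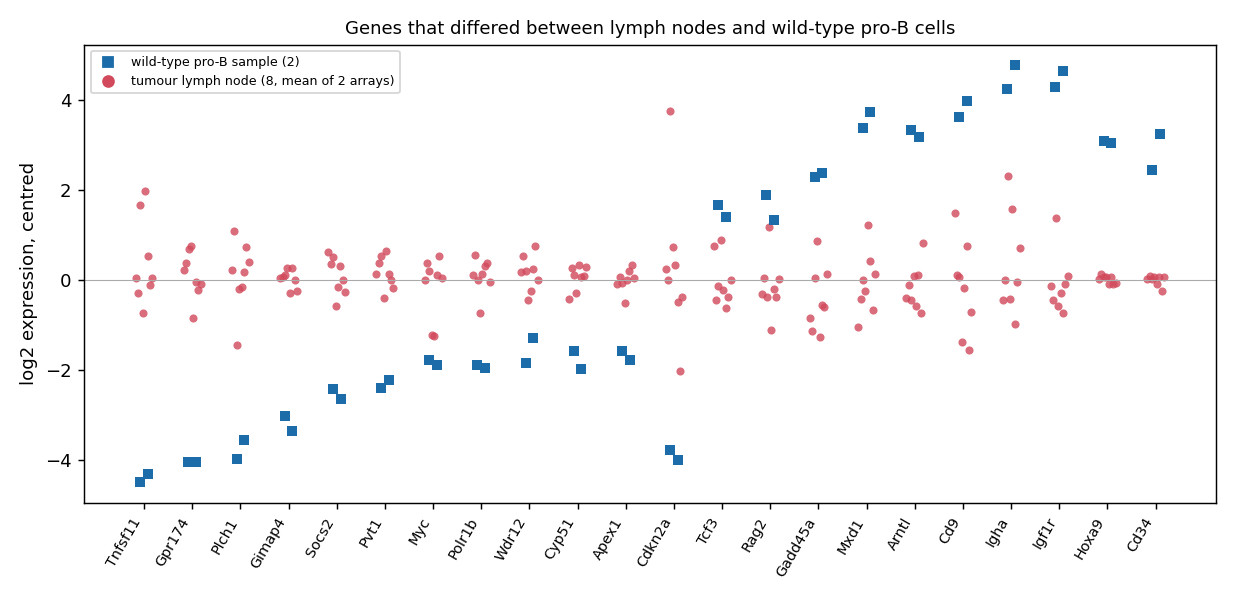
Centred log2 values of 22 genes that were called, in the 2 wild-type samples (squares) and the 8 lymph nodes (circles). No node overlaps the wild-type samples for any of them. The nodes lie within 0.14 and -0.09 for Hoxa9 and spread from -2.02 to 3.76 for Cdkn2a.

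Besides Ebf1 through 1457441_at (4.48), which is left out of the following because its other probe sets were called lower, the 12 largest increases among called genes without overlap between the groups were these. Tnfsf11, the RANK ligand, a cytokine of bone and lymph node formation, read -4.48 and -4.31 in the wild-type samples and from -0.72 to 1.98 in the nodes, with a median of 0.04 (change 4.79 ± 0.63, 27.7-fold, adjusted p = 7e-04, limma). Nodes 279 and 317 were the highest, and both probe sets were called. Gpr174, a lysophospholipid receptor of lymphocytes, read -4.04 in both wild-type samples and from -0.85 to 0.76 in the nodes (4.14 ± 0.35, 17.7-fold, adjusted p = 2.9e-05, limma). Plch1, a phospholipase C, changed by 3.86 ± 0.51. These 3 were robust. Sema6d, a semaphorin, changed by 4.71 ± 0.90 on 1 of 4 probe sets, with node 277 at -3.18 and the next at -0.30. Grb10, an adaptor that restrains insulin-like receptors, changed by 4.22 ± 0.90 on 1 of 3 probe sets, and the calcium channel Cacna1h by 3.69 ± 0.74 on both of its probe sets. Cdh17, a cadherin found in early B-lineage cells, changed by 4.33 ± 1.35 (adjusted p = 0.048, limma) and kept its call in only 1 of the 10 fits that left out a sample, that without node 277. The others among the 12 were Cdkn2a, Myl10 (3.71), Ddc (3.65), Rnase10 (3.30) and Frmd4b (3.24). Apart from the 3 robust genes, all of the 12 lost their call when either wild-type sample was left out, and Frmd4b also without nodes 279, 327 or 383.

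Cdkn2a encodes p16Ink4a and p19Arf, inhibitors that tumours often delete. It read -3.78 and -3.99 in the wild-type samples. In the nodes it was 3.76 in 279, 0.72 in 292, 0.33 in 317, 0.25 in 277, 0.00 in 278, -0.38 in 383, -0.49 in 327 and -2.02 in 381. All nodes lay above the controls (change 4.16 ± 1.08, 17.9-fold, adjusted p = 0.023, limma), and the call was lost when either wild-type sample was left out. Among 30 genes of p53, CDK inhibitors and their targets 11 were lower (36.7%, against 8.66% of all genes) and 4 higher (13.3%, against 11.3%), with a median change of -0.63. Lower were Gadd45a, a stress-induced growth arrest gene, at -2.75 ± 0.48 and the CDK inhibitor Cdkn2d at -1.70 ± 0.40, the latter with node 381 lowest at -1.59. Pmaip1, the death-promoting Noxa, was higher at 1.98 ± 0.48, with node 317 highest at 1.82. Zmat3, a p53 target, stood at 1.86 ± 0.79 and did not pass. The list held 6 lower and 2 higher without wild-type sample 621, and 4 and 1 without 622.

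Myc, the growth-promoting transcription factor, was higher. It read -1.77 and -1.89 in the wild-type samples, -1.22 in node 292 and -1.25 in node 317, and 0.00 to 0.54 in the other 6 (change 1.68 ± 0.46, 3.21-fold, adjusted p = 0.029, limma). The call was lost when either wild-type sample was left out. Its neighbour Pvt1, a long noncoding RNA, read -2.39 and -2.21 in the wild-type samples and from -0.41 to 0.64 in the nodes. It changed by 2.45 ± 0.24 (5.48-fold, adjusted p = 9.9e-05, limma) on 5 of 5 probe sets and was robust. Pvt1 was outside the naming rule and was chosen after its values were seen. Of 12 genes of the Myc network 2 were higher (16.7%, against 11.3% of all genes), Myc and Mnt, a repressor that competes with it (0.69). The network had 3 lower (25%, against 8.66%), or 5 without node 277. All 3 also act against Myc. Mxd1, which competes with Myc for its partner Max, read 3.37 and 3.74 in the wild-type samples and from -1.04 to 1.22 in the nodes (-3.63 ± 0.47, 12.3-fold lower, 3 of 3 probe sets, robust). Mxi1 changed by -0.88 ± 0.22 and Mga by -1.20 ± 0.19, the latter on 1 of 5 probe sets. Mxd1 is also expressed in granulocytes, whose marker list was higher in the controls, and its source was not tested. Mnt and Mxi1 were lost when either wild-type sample was left out and Mga without 622.

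Of the 35 pathway lists, ribosome biogenesis had the largest share of members called. Of 32 measured genes 28 were higher and none lower, where 11.3% of all genes were higher. All 32 differences were above 0, with a median of 0.98. The mean of the list was -0.982 and -1.005 in the wild-type samples, -0.56 in node 292 and -0.01 to 0.27 in the other 7. Polr1b, a subunit of RNA polymerase I, read -1.89 and -1.96 in the wild-type samples and from -0.74 to 0.55 in the nodes (2.02 ± 0.27, 4.05-fold, adjusted p = 0.00068, limma). Wdr12, of the complex that matures the large subunit, changed by 1.71 ± 0.28, the small-subunit factor Tsr1 by 1.68 ± 0.24 and the nucleolar protein Nolc1 by 1.50 ± 0.26. The first 3 were robust, and Nolc1 was lost without wild-type sample 622. Bop1 (0.37 ± 0.29) and Rrp9 (0.29 ± 0.15) were among the 4 that did not pass. The count was 18 without wild-type sample 621 and 14 without 622, with none lower in either, and 28 where the probe sets of each gene were averaged.

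Because these genes moved together, their promoters were searched for CACGTG, the E-box to which Myc and Max bind. It reads the same on both strands, and the 250 bases before each start in RefSeq (GRCm38.p6) were searched, with 28 windows found for the 32 genes. Of these windows 2 held it, which is 7.14%, while 6.02% of all 32851 windows did, so the share was near that of promoters in general. The windows were those of Nop2, an RNA methyltransferase of the nucleolus (0.92 ± 0.23), and Rrn3, which brings RNA polymerase I to the ribosomal DNA (0.76 ± 0.10). They are shown in part, in the direction of the gene, with the E-boxes in capitals, at chr6:125131783-125131868 on the plus strand and chr16:13780449-13780696 on the plus strand. The E-box begins 60 bases before the start in Nop2, and 215 and 48 bases before it in Rrn3.
Nop2: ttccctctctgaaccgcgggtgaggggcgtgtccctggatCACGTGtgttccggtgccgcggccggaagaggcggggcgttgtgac
Rrn3: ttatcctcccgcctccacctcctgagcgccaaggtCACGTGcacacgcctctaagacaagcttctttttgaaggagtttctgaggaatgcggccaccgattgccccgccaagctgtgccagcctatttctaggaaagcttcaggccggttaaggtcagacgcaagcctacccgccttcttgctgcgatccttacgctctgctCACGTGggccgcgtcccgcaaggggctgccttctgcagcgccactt
Rrn3 read -0.77 and -0.75 in the wild-type samples and from -0.25 to 0.11 in the nodes, and was robust. A match of 6 bases is a description of the sequence and not a site of binding.

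**Figure D4:**
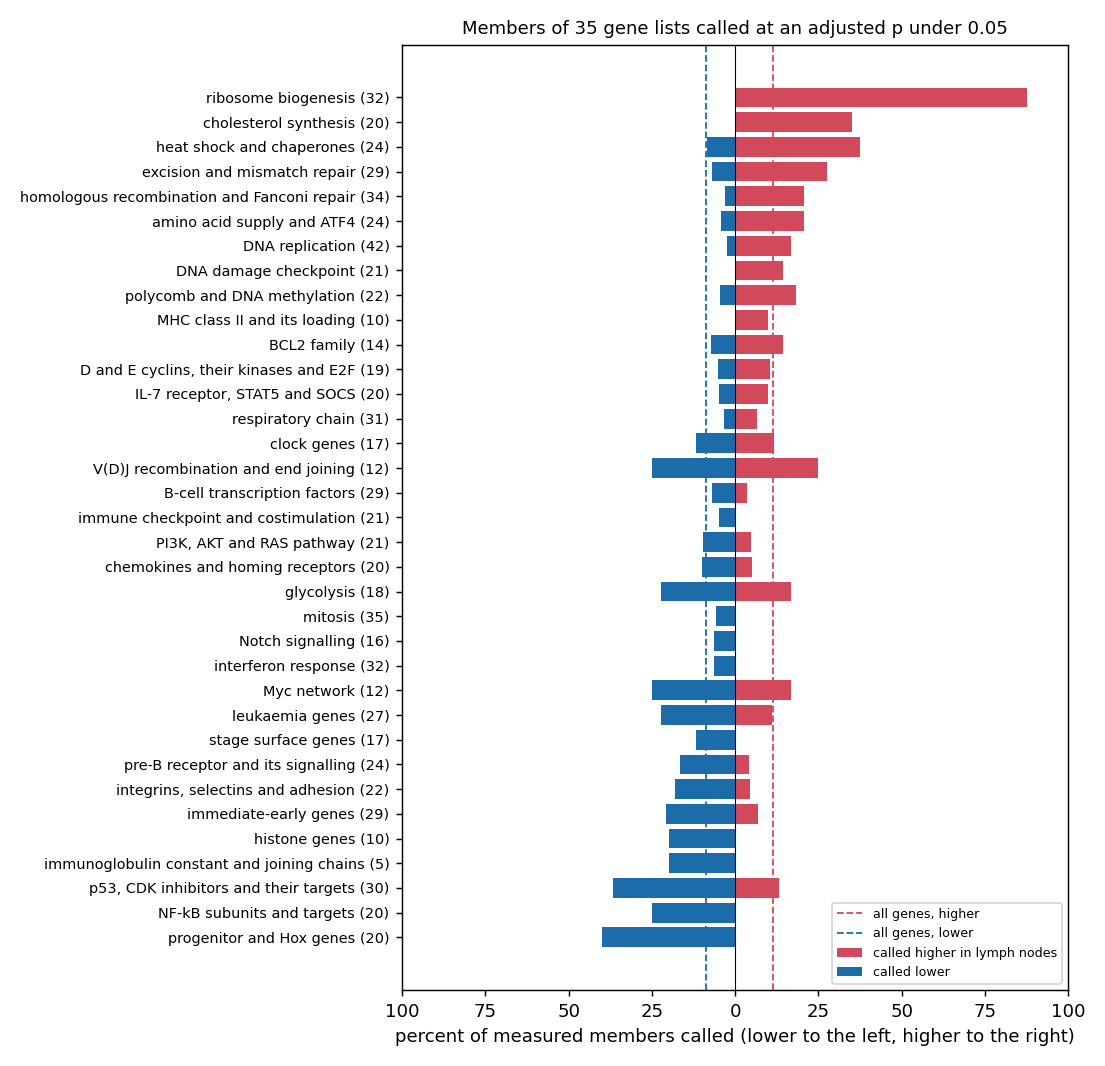
Percent of measured members (number in brackets) of 35 gene lists called higher in the lymph nodes (right) or lower (left), with the share of all genes called higher (11.3%) and lower (8.66%) as dashed lines. Ribosome biogenesis reaches furthest to the right and progenitor and Hox genes furthest to the left.

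Other families of protein synthesis, grouped by symbol after their values were seen, pointed the same way. Of 32 aminoacyl-tRNA synthetases 17 were higher and none lower (median 0.57), and of 11 Utp genes of the small-subunit processome 8 were higher and none lower (0.71). Of 39 genes with symbols of translation initiation factors 22 were higher and 1 lower (0.55), of 35 Ddx helicases 16 and 1 (0.53), and of 76 mitochondrial ribosomal proteins 26 and 1 (0.30). Cytosolic ribosomal proteins had 20 of 46 higher and 2 lower (0.24), and proteasome genes, with 5 of 39 higher and 1 lower (0.16), stood near the 11.3% of all genes. The rise was not particular to protein synthesis. Mitochondrial import genes had 9 of 23 higher and 1 lower, and nucleoporins 7 of 19 and 1. With none lower, the RNA exosome had 4 of 10 higher, RNA polymerase III subunits 4 of 9 and Slc39 zinc transporters 5 of 14. In amino acid supply 5 of 24 genes were higher (20.8%) and 1 lower (4.17%, against 8.66% of all genes). Shmt2, the mitochondrial enzyme that makes glycine, was higher at 1.47 ± 0.24 (robust), the leucine carrier Slc7a5 at 1.26 ± 0.25, and Aldh18a1, of proline synthesis, at 1.13 ± 0.23 on 5 of 5 probe sets. Slc7a5 and Aldh18a1 were lost when either wild-type sample was left out, when 1 gene of the list was higher and 1 lower. Without node 292 the list had 8 higher, and without node 317 it had 6 lower.

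Cholesterol synthesis genes were higher. Of 20 measured 7 passed (35%, against 11.3% of all genes) and none was lower, with a median of 0.54 and 19 of 20 differences above 0. Cyp51, a demethylase of the pathway, read -1.58 and -1.97 in the wild-type samples and from -0.41 to 0.34 in the nodes (1.83 ± 0.20, 3.56-fold, 3 of 3 probe sets, adjusted p = 0.00023, limma). Sqle, which epoxidises squalene, changed by 1.78 ± 0.28, and both were robust. Idi1 (1.01 ± 0.27) was lost when either wild-type sample was left out. The count was 3 without 621 and 3 without 622. Glycolysis had 3 of 18 higher (16.7%) and 4 lower (22.2%, against 8.66% of all genes). Pfkfb4 was lower at -1.63 ± 0.19 (robust) and the transporter Slc2a3 at -1.14 ± 0.31, while Pfkl was higher at 1.18 ± 0.25 with a probe set called in the opposite direction. Slc2a3 and Pfkl were lost when either wild-type sample was left out, Slc2a3 also without node 383. Without node 292 there were 5 higher. Without 621 the list held none higher and 2 lower, and without 622 none and 1. Of 31 respiratory chain genes 2 were higher (6.45%) and 1 lower (3.23%), both below the shares of all genes.

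Chaperones had 9 of 24 members higher (37.5%, against 11.3% of all genes) and 2 lower (8.33%, against 8.66%). Canx, a chaperone of the endoplasmic reticulum, read -1.41 and -1.87 in the wild-type samples and from -0.43 to 0.18 in the nodes (1.67 ± 0.17, 3.19-fold, 3 of 3 probe sets, adjusted p = 0.00012, limma). Hspa9, the mitochondrial Hsp70, changed by 1.43 ± 0.23, with 3 of 5 probe sets called higher and 1 lower, and both genes were robust. Hspa8 was lower at -1.35 ± 0.41 on 1 of 4 probe sets, with the wild-type samples far apart at 0.44 and 1.97. That call was lost without wild-type sample 622 and without nodes 277, 279, 292, 327 or 381. The list held 4 higher and 2 lower without wild-type sample 621, and 3 and none without 622. Without nodes 279 and 383 together it held 4 higher and none lower.

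The DNA repair lists leaned to higher values. Excision and mismatch repair had 27.6% of members called higher and recombination and Fanconi repair 20.6%, against 11.3% of all genes. The checkpoint list had 14.3%. Lower were 6.9%, 2.94% and 0%, against 8.66%. In excision and mismatch repair 8 of 29 were higher and 2 lower. Apex1, the endonuclease that cuts abasic sites, read -1.58 and -1.77 in the wild-type samples and from -0.52 to 0.34 in the nodes (1.67 ± 0.18, 3.19-fold, 3 of 3 probe sets, robust, adjusted p = 0.00018, limma). The uracil glycosylase Ung was higher at 1.03 ± 0.27, and the glycosylases Neil3 and Neil1 were lower at -1.50 ± 0.35 and -1.30 ± 0.28. Neil3 passed on its more variable probe set only. In homologous recombination and Fanconi repair 7 of 34 were higher and 1 lower, with 27 differences above 0 and a median of 0.45. Nbn and Mre11a, of the complex that senses breaks, changed by 0.94 ± 0.26 and 0.94 ± 0.24, and Brca2, which loads the recombinase, by 0.81 ± 0.18. For Mre11a only the more variable probe set passed. Fancm was the 1 lower at -0.79 ± 0.16, on its most variable probe set only. In the DNA damage checkpoint 3 of 21 were higher: the kinases Atr at 1.29 ± 0.26 and Atm at 0.77 ± 0.23, and Tipin at 0.72 ± 0.19. Apart from Apex1 every called gene of this paragraph was lost when either wild-type sample was left out, Nbn also without node 383, and Atm also without 277, 278, 279, 327, 381 or 383. Without wild-type sample 622 the 3 lists held 1, 0 and 0 higher, and without 621 they held 1, 3 and 0. Without node 292 the checkpoint list held 8 higher, and without nodes 279 and 383 together the excision list held 5.

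Few replication and mitosis genes were called. Of 42 replication genes 7 were higher (16.7%, against 11.3% of all genes) and 1 lower, and 34 differences were above 0 (median 0.37). The origin subunit Orc2 was higher at 0.84 ± 0.17 and the licensing factor Cdc6 at 0.87 ± 0.26, and the clamp loader subunit Rfc1 was lower at -0.53 ± 0.16 (0.05 where probe sets were averaged). Of 35 mitosis genes none was higher and 2 were lower (5.71%, against 8.66% of all genes), and 3 differences were above 0 (median -0.43). Cdc25b, a phosphatase that starts mitosis, changed by -2.06 ± 0.59 and the condensin subunit Smc4 by -0.73 ± 0.20. Of the genes that enter the cycle, Cdk4 was higher at 1.00 ± 0.20 on 3 of 3 probe sets and E2f3 at 0.91 ± 0.22, while E2f2 was lower at -2.03 ± 0.41 on 2 of 2. Ccnd3, the D-type cyclin of pre-B cells, stood at -1.24 ± 0.40 (adjusted p = 0.056, limma) and did not pass. Of 10 histone genes measured 2 were lower (20%), H3c7 at -2.37 ± 0.44 and H1f2 at -1.87 ± 0.48, and all 10 differences were below 0. Without wild-type sample 622 all genes named as called here were lost, and without 621 all but Orc2, Cdk4 and H3c7. Without 1 node the count of higher replication genes was 14 without 292, 4 without 277 or 383 and 3 without 278, 327 or 381. Cdc6 was also lost without nodes 277, 278, 327, 381 or 383, Cdc25b without 278, 279 or 383, and Rfc1 without 278, 279, 381 or 383. Without 621 and without 622 the replication list held 1 and 0 higher. With probe sets averaged 3 of 42 replication genes and 4 of 34 recombination genes were higher.

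Progenitor and Hox genes were lower. Of 20 measured 8 were lower and none higher, against 8.66% of all genes lower. Hoxa9, a homeobox gene of early progenitors, read 3.09 and 3.05 in the wild-type samples and lay between -0.09 and 0.14 in all 8 nodes (-3.05 ± 0.08, 8.29-fold, 2 of 2 probe sets, adjusted p = 7.1e-09, limma). Its cofactor Meis1 changed by -2.44 ± 0.08 and the progenitor surface protein Cd34 by -2.84 ± 0.17, and all 3 were robust. Hoxa9 and Cd34 did not differ between nodes by the F test used below (adjusted p = 0.86 and 0.21, limma). Pbx3 changed by -2.39 ± 0.65, with node 279 at 2.43, just below wild-type sample 621, and its call was lost when either wild-type sample was left out. The count was 7 without 621 and 6 without 622. The nodes' granulocyte list stood below the controls in the same samples, and the part of myeloid progenitors in these values was not tested.

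Among surface proteins that were lower was Igf1r, the insulin-like growth factor receptor. It read 4.28 and 4.64 in the wild-type samples and from -0.73 to 1.37 in the nodes, with node 279 highest, and changed by -4.56 ± 0.44 (23.6-fold, 5 of 5 probe sets, robust, adjusted p = 8.3e-05, limma). Igf1r was outside the naming rule and was chosen after its values were seen. Cd9, a tetraspanin of early B cells, changed by -3.97 ± 0.68 and the chemokine receptor Ccr2 by -3.66 ± 0.73 on 4 of 4 probe sets. Ccr2 is also on the macrophage and monocyte list above, and the part of myeloid cells in the values of these surface genes was not tested. Igha, the constant region of IgA, read 4.24 and 4.77 in the wild-type samples and from -0.99 to 2.31 in the nodes (-4.16 ± 0.75, 3 of 3 probe sets), while Jchain, which joins IgA, stood at 0.54 ± 0.85 and did not pass. Integrins went both ways: Itgb2, the leukocyte chain, was lower at -2.11 ± 0.43 and Itgb1 higher at 1.30 ± 0.22 (robust, 3 of 6 probe sets). Cd44 stood at -3.30 ± 1.65 and did not pass. Cd9 and Igha were lost without wild-type sample 622, and Ccr2 and Itgb2 when either was left out.

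The 12 largest decreases outside the marker lists were Slfn4 (-7.97 ± 0.40), F13a1 (-7.10), Fpr2 (-7.09), Gda (-6.88), Olfm4 (-6.87), Lrg1 (-6.40), Mcpt8 (-6.39), Tnfaip2 (-6.23), Lgals3 (-6.21), Cd300lb (-5.90), Sgms2 (-5.90) and App (-5.81). All were robust. Fpr2, a receptor for bacterial peptides, Olfm4 and Mcpt8, a basophil protease, are genes of myeloid cells. The granulocyte list was lower in every node, so any decrease without overlap falls in the same samples. The part of myeloid cells in these values was not tested.

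Lymphocyte genes among the increases included the Gimap GTPases, which regulate lymphocyte survival. Of 8 measured 5 were higher and none lower, and all 8 differences were above 0 (median 1.31). Gimap4 read -3.02 and -3.36 in the wild-type samples and from -0.28 to 0.27 in the nodes (3.22 ± 0.16, 9.33-fold, 2 of 2 probe sets, adjusted p = 4.6e-07, limma), and Gimap3 changed by 2.80 ± 0.32. Both were robust, and the family was chosen after its values were seen. The T-cell list, whose cells also express Gimap genes, ran from -0.64 to 2.25 in the nodes, and its part in them was not tested. Bank1, an adaptor of the B-cell receptor, was higher at 2.86 ± 0.52 and the homing receptor Ccr7 at 1.05 ± 0.24, while Cd72, an inhibitory receptor of B cells, was lower at -1.60 ± 0.42. Ccr7 and Cd72 were lost when either wild-type sample was left out, and Bank1 without 621. The class II loading gene H2-DMb2 was higher at 1.97 ± 0.54 on 1 of 3 probe sets and was lost when either wild-type sample was left out.

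Immediate-early and NF-kB genes had more calls lower than higher, and clock genes had as many of each. Of 29 immediate-early genes 6 were lower (20.7%, against 8.66% of all genes) and 2 higher. Fosl2 changed by -3.47 ± 0.79 on 1 of 2 probe sets, Ier3 by -3.07 ± 0.59 and Egr1 by -2.47 ± 0.59, while Dusp4, a phosphatase that limits ERK, was higher at 1.97 ± 0.55. Of 20 NF-kB subunits and targets 5 were lower (25%) and none higher, among them the inhibitors Tnfaip3 at -1.34 ± 0.21 and Nfkbie at -1.06 ± 0.16, both robust. Of 32 interferon response genes 2 were lower (6.25%), with Rsad2 at -2.54 ± 0.50 on 3 of 3 probe sets, and 5 were lower without nodes 279 and 383 together. Of 17 clock genes 2 were lower and 2 higher (11.8% each, near the shares of all genes), 13 differences were above 0 and the median was 0.51. Arntl, the Bmal1 activator of the clock, read 3.32 and 3.17 in the wild-type samples and from -0.73 to 0.83 in the nodes (-3.40 ± 0.34, 10.6-fold, 2 of 2 probe sets, robust, adjusted p = 1e-04, limma). Per3 (1.05 ± 0.29) and Cry2 (0.79 ± 0.18), which act against it, were higher, and Nfil3 was lower at -1.93 ± 0.44. Most probe sets of Per3 did not pass. The time of day at which samples were taken is not given in the sources used here. Fosl2, Egr1, Dusp4, Rsad2, Per3, Cry2 and Nfil3 were lost when either wild-type sample was left out and Ier3 without 622. The immediate-early list held 2 lower without 621 and 0 without 622, and, without nodes 279 and 383 together, 4 lower and none higher. The NF-kB list held 2 lower with either left out.

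The nodes also differed among themselves. By limma's moderated F test over their 16 arrays, against the spread between arrays of a node, which may be technical, 10853 genes differed (59.7%). The genes with the largest F were Dntt, Eif2s3y, Mgst2, Ccnd1, Xist, Nid1, Lgals1, Prdm14, Iglv1, Ffar2, Trbv1 and Klrd1. Dntt read 2.05 in node 292, 1.56 in 383, 1.42 in 327, 0.00 in 277, -0.56 in 279, -3.07 in 317, -4.19 in 278 and -5.00 in 381, while the wild-type samples stood at 2.37 and 2.10. So 3 nodes lay far below the other 5. Ccnd1, a D-type cyclin, read -6.05 in node 277 and -0.44 to 1.35 in the other 7, with the wild-type samples at -3.45 and -2.93. Prdm14, a regulator of pluripotent cells that causes lymphoid leukaemia in mice when overexpressed, read 5.99 in node 317, 6.22 in 381 and 4.74 in 383, and from -0.16 to 0.04 in the other 5. The T-cell receptor variable gene Trbv1 was highest in node 279 (4.48), 383 (2.45) and 381 (1.61), as was the receptor chain Cd3g (4.55, 2.54 and 1.77). Those were the nodes in which the T-cell list, of which Cd3g is a member, was highest.

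Xist, the RNA of the inactive X chromosome, read -8.53 in node 279 and -8.40 in node 292, close to the wild-type samples at -9.03 and -8.76, and -0.21 to 0.93 in the other 6 nodes. The Y-linked Eif2s3y read 7.07 and 7.49 in those 2 nodes, 6.66 and 6.70 in the wild-type samples and -0.14 to 0.07 in the other 6. These sex-linked RNAs split 6 of the nodes from the controls, and the part of sex in other genes was not tested.

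**Figure D5:**
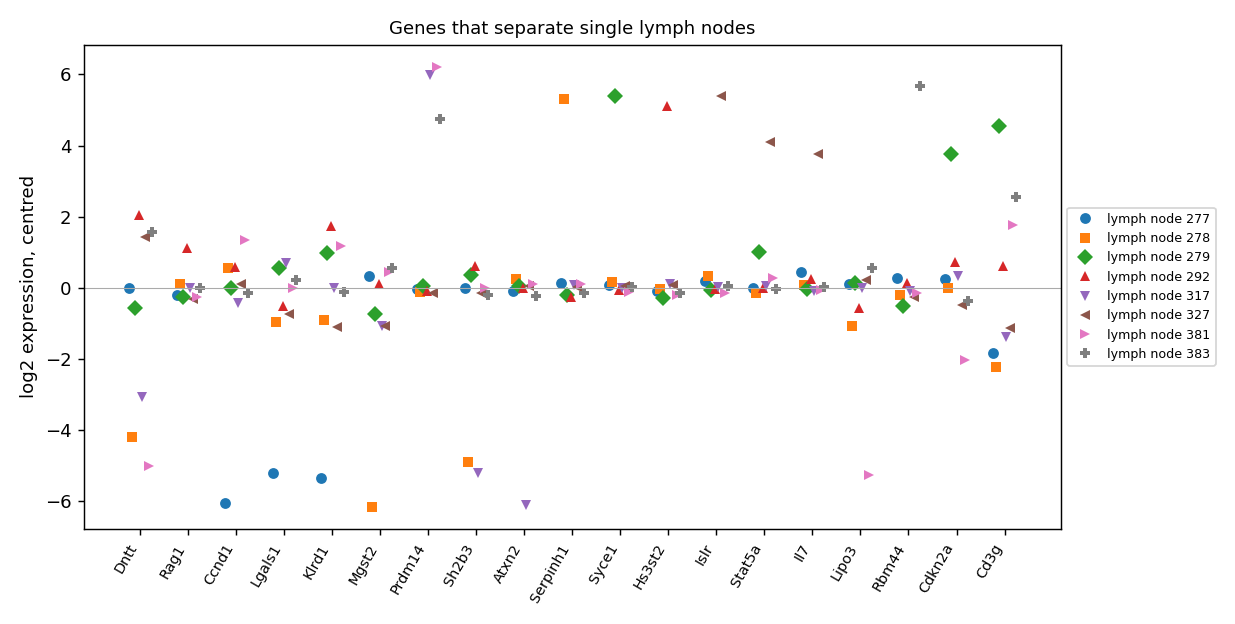
Centred log2 values of 19 genes in the 8 lymph nodes, with 1 marker per node, each the mean of 2 arrays. For Atxn2 node 317 lies at -6.12 and the others between -0.22 and 0.25, and Prdm14 is high in nodes 317, 381 and 383.

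Each node had genes that set it apart. The largest gap to the nearest other node was 5.61 for Ccnd1 in node 277, 5.18 for the collagen chaperone Serpinh1 in 278, 5.24 for the meiotic gene Syce1 in 279, 5.01 for the heparan sulphate enzyme Hs3st2 in 292, 5.89 for Atxn2 in 317, 5.07 for Islr in 327, 4.19 for Lipo3 in 381 and 5.40 for Rbm44 in 383. Serpinh1, Syce1, Hs3st2, Islr and Rbm44 were high in their node, and Ccnd1, Atxn2 and Lipo3 low. Some of these genes lie beside another that moved in the same node. Taking genes that lay over 2 from the median of the other nodes, 59 pairs of adjacent measured genes moved together in a node. Many pair with related genes, such as S100a8 and S100a9. Atxn2 and its neighbour Sh2b3, an inhibitor of JAK signalling, stood at -6.16 and -5.19 from that median in node 317. Sh2b3 was also low in node 278 (-4.90), in which Atxn2 read 0.25. In node 381 Blnk, an adaptor of the pre-B receptor, and its neighbour Dntt stood at -2.16 and -5.00 from it. In node 327 Stat5a read 4.11 and its neighbour Stat5b 1.53, with the next highest at 1.00 and 1.01, both in node 279, and Il7, the cytokine that acts through them, read 3.75 in node 327 and at most 0.44 elsewhere. Il7, Stat5a, Stat5b and the pairs were chosen after their values were seen, and whether they follow from changes in the genome was not tested.

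Shifts of chromosome medians were small on the chromosomes analysed, 1 to 17, 19 and X, with 18 and Y not analysed here. The median difference of a node from the median of the other 7 lay between -0.07 and 0.08, apart from chromosome 15 in node 317, at 0.12 over 724 genes. Chromosome 15, which carries Myc and Pvt1, was also at 0.08 in node 279, where the other chromosomes measured lay between -0.06 and 0.00. In node 317 Myc itself was the lowest of the nodes, at -1.25.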

How the data were processed

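The authors deposited log2 expression values per probe set, summarised by RMA (robust multi-array average) per the submitters' processing notes, and their software versions are not given in the sources used here. The values are centred by a constant that is not known: 24.8% of the 34958 probe sets with 1 gene symbol had a median of 0 in this experiment (within 1e-05), so no filter on low values was possible. Depth does not apply, and the number of arrays limits the precision. The 2 arrays of each node were averaged, each of 18194 genes was taken from its most variable probe set, and the groups were compared with limma 3.58.1 (R 4.3.3), with Benjamini-Hochberg adjustment. Symbols were updated through a RefSeq gene table, which matched 34754 of the 34958 probe sets. The fit was tested on simulated data. Nothing in the labels says more of how replicates arose, so a p-value reflects only how far these samples vary.

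The gene lists and members were chosen with earlier results of these data known. Genes were named by rule: 7 fixed genes, the 12 largest changes in each direction outside myeloid, erythroid and stromal lists, up to 4 called and 2 other members of each list, the 12 genes with the largest F and the gene with the largest gap in each node. Others are said to have been chosen after their values were seen. Alternatives were averaged probe sets, each probe set, single arrays, the node as a random block, median centring, the more variable genes, robust variances, all groups and leaving out each sample.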

Additional observations from a re-analysis of the deposited data

Results flagged for a closer look

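A node stood apart from the others in 40 of 173 values tested, 163 named genes and 10 cell-type lists. Each was the highest or lowest of the 8 nodes, with a gap to the nearest node that, as a share of the whole range, exceeded Dixon's critical value. Chance flags about 1 in 20 such groups, and many named genes were chosen for their differences between nodes. No explanation was tested, and all values are centred log2 values.

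Node 279 was the highest for the NK and innate lymphoid list (2.263, the next 0.547), Lcn2 (2.852), Slc40a1 (0.621), Slc4a1 (1.185), Slfn4 (1.21), Olfm4 (1.839), Lrg1 (0.544), Ier3 (2.276), Igf1r (1.373), Pbx3 (2.432) and Syce1 (5.406). Its granulocyte list, of which Lcn2 is a member, was also the highest, at 0.82.

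Node 292 was the lowest for genes of ribosome biogenesis and protein folding: Polr1b (-0.742), Tsr1 (-0.836), Nolc1 (-0.871), Nop2 (-0.595), Canx (-0.434) and Hspa9 (-0.707). It was also the lowest for Shmt2 (-0.743) and Orc2 (-0.500), and the highest for Bach2 (1.703), Rag1 (1.111), Neil1 (0.941) and Hs3st2 (5.112).

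Node 277 was the lowest for Ccnd1 (-6.054), Lgals1 (-5.221), Klrd1 (-5.353), Sema6d (-3.181) and Frmd4b (-3.02). Node 278 was the lowest for Mgst2 (-6.164) and the highest for Serpinh1 (5.296). Node 317 was the lowest for Atxn2 (-6.117) and the highest for Pmaip1 (1.822). Node 327 was the highest for Islr (5.397), Stat5a (4.113), Il7 (3.754) and Mcpt8 (0.671). Node 381 was the lowest for Lipo3 (-5.264) and Cdkn2d (-1.589), and node 383 the highest for Rbm44 (5.677) and Cd300lb (0.879).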

How the results depend on the processing

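The calls depended most on the 2 wild-type samples. Leaving out 1 sample gave 1117 to 3986 called genes, 470 to 2323 higher and 647 to 1693 lower, the fewest of each without wild-type sample 622. Without wild-type sample 621 the counts were 1716, 861 and 855. Leaving out a node gave 3039 to 3986. Without nodes 279 and 383 together, an alternative chosen after seeing the data, 2827 genes were called. Averaging probe sets gave 3224, single arrays of each node 3359 and 3048, the random block 4014, median centring 3692, the more variable genes 2844, robust variances 3587, all groups 5063 and each probe set 4438. The more variable genes had a median change of 0.17, against 0.02. Of the values of named genes under alternatives 2999 kept direction and side of the threshold, 227 lost the call, 32 gained it and 1 reversed: Rfc1 stood at 0.052 with averaged probe sets (the cause was not tested). The count of genes that differ between nodes ran from 8090 to 10933. No paired analysis was possible because the nodes and wild-type samples share no replicate number. Signal over background cannot be read from centred values.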
